A study of Homo sapiens with 3 samples.

Results

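The small nucleolar RNA (snoRNA) host genes SNHG1, SNHG3, SNHG5, SNHG6, SNHG7, SNHG8, SNHG12 and GAS5 were described across 3 RNA-seq libraries of HEK293T, an established human embryonic kidney cell line. They were taken by name, as 8 of the 23284 rows of the deposited gene table, together with the 12 of their 13 isoform rows that were 300 nt or longer, out of 41138 isoform rows in all. One library came from cells given ESRP2 siRNA, 1 from cells given Arkadia siRNA and 1 from cells given a negative control siRNA. ESRP2 is a splicing regulator of epithelial cells, and Arkadia is the ubiquitin ligase encoded by RNF111. All 3 cultures were reverse-transfected with a lipid reagent, received no TGF-beta, were harvested at 48 h and were sequenced as polyA RNA on an Ion semiconductor instrument. With 1 library per group no difference between groups could be tested, so each ratio below compares a pair of libraries and not the treatments.

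snoRNA host genes are transcribed and spliced like other genes, and their introns carry snoRNAs, which guide the chemical modification of ribosomal RNA after they are cut out. In the hosts studied here the joined exons encode no known functional protein, and the spliced RNA of several of them, GAS5 included, is known to be translated over short frames and then destroyed by nonsense-mediated decay. GAS5 is known for accumulating in growth-arrested cells. Many snoRNA hosts start at a run of pyrimidines, the terminal oligopyrimidine type of promoter that ribosomal protein genes also use. The deposited tables measure the spliced RNA of the hosts. They also held 28 snoRNA rows of 43 to 134 nt at these loci, below the 300 nt limit: 8 box C/D rows at SNHG1, 10 at GAS5 and 2 at SNHG5, 3 box H/ACA rows and 1 box C/D row at SNHG12, 2 H/ACA rows at SNHG7, 1 H/ACA row at SNHG8, 1 C/D row at SNHG6 and 0 at SNHG3. The count of 0 says only that no such row was held, not that SNHG3 carries no snoRNA.

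The start regions of the hosts are shown because this promoter type is what the class is known for. For 7 of the 8 hosts a RefSeq window on GRCh38.p14 was matched by symbol, and the 80 bases from 50 before to 30 after the annotated start are printed for 6 of them, 5′ to 3′ on the gene's strand. Capitals mark TATAA where it lies 40 to 20 bases before the start, and a run of pyrimidines where a C within 5 bases of the start is followed by at least 4 further C or T.
SNHG5, minus strand, chr6:85678704-85678783: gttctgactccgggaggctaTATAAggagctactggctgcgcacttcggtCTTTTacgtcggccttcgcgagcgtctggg
SNHG7, minus strand, chr9:136728155-136728234: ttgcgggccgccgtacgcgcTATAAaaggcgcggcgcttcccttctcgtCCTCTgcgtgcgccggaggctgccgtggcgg
SNHG8, plus strand, chr4:118278712-118278791: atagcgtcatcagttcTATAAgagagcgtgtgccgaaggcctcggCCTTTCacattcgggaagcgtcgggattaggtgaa
SNHG12, minus strand, chr1:28581844-28581923: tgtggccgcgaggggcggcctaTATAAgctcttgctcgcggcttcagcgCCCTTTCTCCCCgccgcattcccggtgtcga
SNHG1, minus strand, chr11:62855856-62855935: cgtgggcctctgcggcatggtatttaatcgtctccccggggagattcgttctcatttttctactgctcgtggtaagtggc
SNHG3, plus strand, chr1:28505893-28505972: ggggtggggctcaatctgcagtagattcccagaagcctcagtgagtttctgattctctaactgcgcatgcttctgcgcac

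SNHG5, SNHG7, SNHG8 and SNHG12 held both motifs, and the windows of SNHG1, SNHG3 and GAS5 held neither by these letters and positions. TATAA began at position -30 in SNHG5 and SNHG7, -34 in SNHG8 and -28 in SNHG12, counted from the RefSeq start. The pyrimidine runs were 5 bases long in SNHG5 and SNHG7, 6 in SNHG8 and 12 in SNHG12. Of all 35116 RefSeq windows, 3.82% held TATAA in that interval, 18.1% held the pyrimidine run and 0.723% held both, against 4 of the 7 host windows. On the other strand, TTATA was in 0 host windows and in 1.61% of all windows. The annotated start bears on which letters are found: the GENCODE transcript matched to the table's isoform began at the same base in SNHG5 and SNHG7, but 18 bases further downstream in SNHG1, 37 in SNHG3 and 55 in SNHG12, 53 bases upstream in SNHG8, and 1058 bases downstream in GAS5, whose window is therefore not printed. The hosts with both motifs did not share a direction. With ESRP2 siRNA against control siRNA their log2 ratios were 1.47 for SNHG5, 0.83 for SNHG8, 0.01 for SNHG12 and -0.18 for SNHG7.

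Library size was estimated from the steps of the FPKM values, which divide the fragments of a transcript by its length and by library size. How libraries were scaled is not given, so these sizes equal sequencing depth only if the values were not rescaled between libraries. In single-isoform genes longer than 1500 nt, 99.5% of values of up to 6 reads with ESRP2 siRNA, 99.6% with Arkadia siRNA and 99.4% with control siRNA lay within 0.1 of a whole read once about 201 nt were taken off the transcript length, which gave about 13.4 M, 9.74 M and 12.9 M reads for these libraries in that order. RNF111 stood at 1.15 FPKM with Arkadia siRNA and 7.65 FPKM with ESRP2 siRNA, against 6.38 FPKM with control siRNA. ESRP2 stood at 4.27 FPKM with ESRP2 siRNA and 21.2 FPKM with Arkadia siRNA, against 14.8 FPKM with control siRNA. Each target was thus lowest in the library of its own siRNA. The RNF111 intervals with Arkadia siRNA (0.500 to 1.82 FPKM) and control siRNA (3.15 to 9.59 FPKM) were apart. The ESRP2 intervals with ESRP2 siRNA (0.0878 to 9.33 FPKM) and control siRNA (3.34 to 26.3 FPKM) overlapped. Of genes known from HEK293 cells, the neurofilament gene NEFL stood at 28.96, 30.4 and 30.9 FPKM, NEFM at 9.90, 12.1 and 18.3 FPKM and the kidney progenitor gene SIX2 at 10.6, 16.0 and 13.9 FPKM with ESRP2, Arkadia and control siRNA. PAX2 and LHX1 were between 0.718 and 2.13 FPKM. Of 10 markers of other cell types, 9 averaged under 1 FPKM and EPCAM reached 1.67, 1.01 and 1.89 FPKM.

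The hosts differed in level by more than an order of magnitude, with GAS5, SNHG5 and SNHG8 at the top. These 3 held 81.5% of the hosts' summed FPKM with ESRP2 siRNA, 72.2% with Arkadia siRNA and 72.3% with control siRNA. The sum over the 8 hosts was 1492 FPKM with ESRP2 siRNA and 1067 FPKM with Arkadia siRNA, against 952 FPKM with control siRNA, which is 0.234%, 0.165% and 0.163% of each table's total. SNHG8's place at the top rests on a 274 nt isoform row, below the 300 nt limit; its longer rows summed to 15.1, 12.6 and 8.97 FPKM in the same libraries, near or below the lowest of the other hosts. Levels are per length, and the bounds given are the authors' confidence bounds.

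SNHG5, host of the box C/D snoRNAs SNORD50A and SNORD50B, stood at 622 FPKM (307 to 937) with ESRP2 siRNA and 327 FPKM (121 to 490) with Arkadia siRNA, against 225 FPKM (84.1 to 311) with control siRNA. Both siRNA libraries were above the control library, the ESRP2 siRNA library more so, and all the intervals overlapped. GAS5, with 10 C/D rows, stood at 202 FPKM (85.0 to 295) with ESRP2 siRNA and 240 FPKM (101 to 346) with Arkadia siRNA, against 243 FPKM (102 to 349) with control siRNA. SNHG8, host of the H/ACA snoRNA SNORA24, stood at 393 FPKM (174 to 612) with ESRP2 siRNA and 204 FPKM (82.0 to 326) with Arkadia siRNA, against 220 FPKM (92.5 to 348) with control siRNA. Its ESRP2 siRNA value was the high one, and the intervals of all 3 libraries overlapped.

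SNHG6, host of SNORD87, stood at 111 FPKM (49.2 to 173) with ESRP2 siRNA and 93.5 FPKM (42.7 to 144) with Arkadia siRNA, against 105 FPKM (36.1 to 153) with control siRNA. SNHG1, host of 8 C/D snoRNAs from SNORD22 to SNORD31, stood at 64.2 FPKM (31.4 to 95.8) with ESRP2 siRNA and 63.2 FPKM (31.3 to 95.2) with Arkadia siRNA, against 64.1 FPKM (31.4 to 96.6) with control siRNA. SNHG1 was the flattest of the hosts over the 3 libraries. SNHG7, host of SNORA17 and SNORA43, stood at 54.3 FPKM (14.7 to 93.9) with ESRP2 siRNA and 104 FPKM (28.9 to 179) with Arkadia siRNA, against 61.5 FPKM (14.8 to 108) with control siRNA. Here the Arkadia siRNA library was the high one.

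The lowest hosts were SNHG3 and SNHG12, which lie near each other on chromosome 1. SNHG3 stood at 32.4 FPKM (0.675 to 64.9) with ESRP2 siRNA and 17.2 FPKM (0 to 44.3) with Arkadia siRNA, against 20.1 FPKM (0.112 to 44.3) with control siRNA. SNHG12, which carries 3 H/ACA snoRNAs and 1 C/D snoRNA, stood at 13.7 FPKM (1.25 to 26.1) with ESRP2 siRNA and 18.5 FPKM (2.72 to 34.3) with Arkadia siRNA, against 13.6 FPKM (2.16 to 25.1) with control siRNA. Even SNHG12 lay above the median gene: it was at percentile 53.4, 64.7 and 56.1 of the 11870 genes compared, and GAS5 was at percentile 96.1, 97.0 and 97.4.

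**Figure D1:**
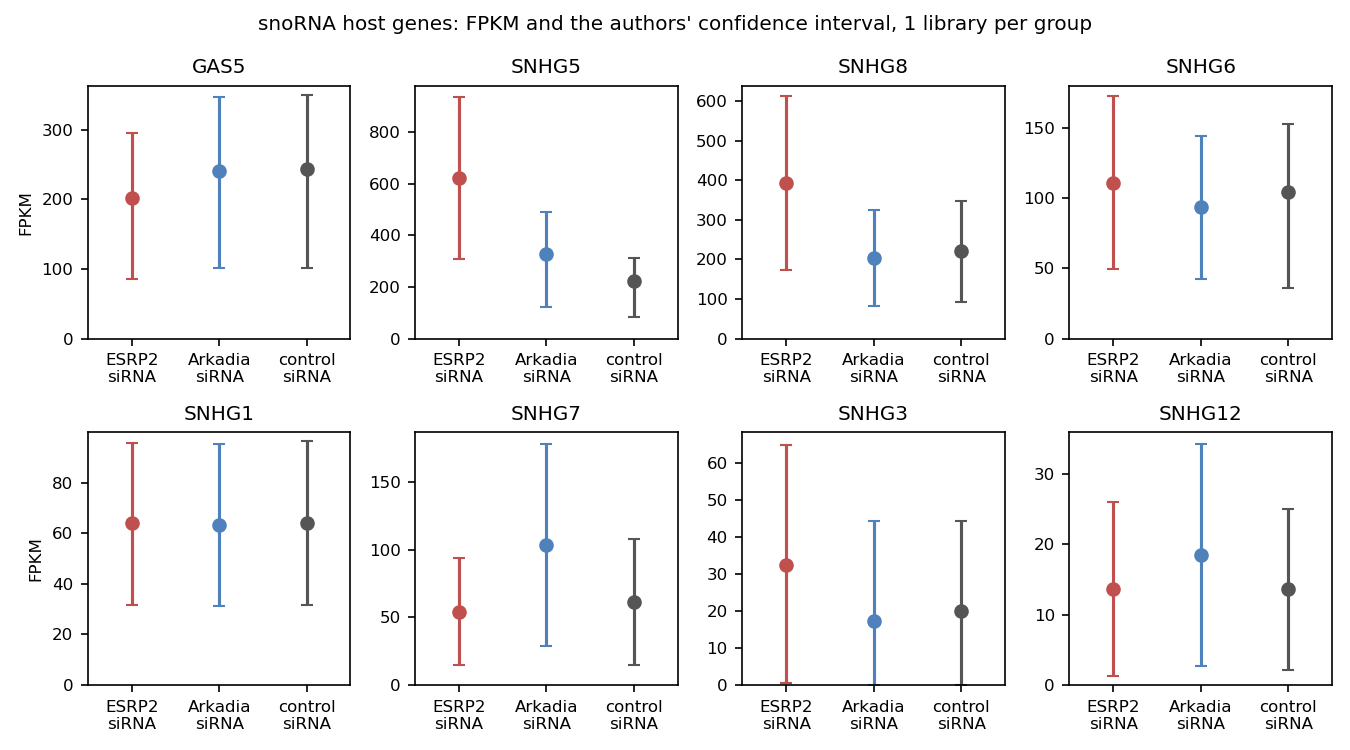
FPKM of each host in the ESRP2 siRNA, Arkadia siRNA and control siRNA library, 1 panel per host with its own linear axis from 0. Points are the deposited values and bars the authors' confidence intervals; SNHG5 reaches 622 FPKM with ESRP2 siRNA against 225 FPKM with control siRNA, and within every panel the bars overlap.

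The order of levels, taken with SNHG8's gene row, differed between the libraries at the top. It began SNHG5, SNHG8, GAS5 with ESRP2 siRNA and SNHG5, GAS5, SNHG8 with Arkadia siRNA, against GAS5, SNHG5, SNHG8 with control siRNA. It went on SNHG6, SNHG1, SNHG7, SNHG3, SNHG12 with ESRP2 siRNA and SNHG7, SNHG6, SNHG1, SNHG12, SNHG3 with Arkadia siRNA, against SNHG6, SNHG1, SNHG7, SNHG3, SNHG12 with control siRNA. No 2 neighbours in these orders had intervals that were apart. Of the 28 pairs of hosts, 15 had intervals that were apart with ESRP2 siRNA and 9 with Arkadia siRNA, against 9 with control siRNA.

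The intervals were far wider than counting error. SNHG5 rested on about 2557 reads with ESRP2 siRNA and 975 with Arkadia siRNA, against 890 with control siRNA, and 1 SD of counting error was 1.98%, 3.20% and 3.35% of these. The authors' interval reached on average 50.6%, 56.5% and 50.4% of the value to either side. A confidence bound is not set at 1 SD, so these sizes are not like for like. Of the 5 hosts with 1 isoform row, for which reads could be estimated, SNHG12 had the fewest, with 99, 97 and 95 in the same order and a counting error of about 10%. Counting error leaves out the spread between cultures, which 1 library per group cannot show.

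For the comparisons, log2((FPKM + 1)/(FPKM + 1)) was taken over the 11870 genes that averaged 1 FPKM or more and whose longest isoform was not under 300 nt, which included all 8 hosts. Rose and fell are used for ratios of 1.5-fold or more, a size that describes a pair of libraries and carries no test.

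With ESRP2 siRNA, 3 of the 8 hosts rose against control siRNA, 0 fell and 5 did neither. SNHG5 rose the most, with a log2 ratio of 1.47 (2.77-fold without the added 1), SNHG8 rose by 0.83 (1.78-fold) and SNHG3 by 0.66 (1.61-fold). Among all genes compared 19.9% rose and 11.4% fell, and the difference between these shares and 3 of 8 was not tested. The other log2 ratios were 0.08 for SNHG6, 0.01 for SNHG12, 0.00 for SNHG1, -0.18 for SNHG7 and -0.27 for GAS5. The median of the 8 hosts was 0.04, beside 0.12 over all genes.

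The intervals of 0 of the 8 hosts were apart, where 1.28% of all genes had intervals apart. SNHG5 came close: its lower bound was 307 FPKM with ESRP2 siRNA and its upper bound 311 FPKM with control siRNA. It was also the only host past 2-fold, a size that 5.45% of genes reached upward. The sum over the hosts was 540 FPKM higher with ESRP2 siRNA than with control siRNA. SNHG5 alone was 397 FPKM higher, or 73.6% of that difference, and SNHG8 was 172 FPKM higher, or 31.9% of it. GAS5 and SNHG7 were lower with ESRP2 siRNA.

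The ratios of all genes followed the GC content of their transcripts. The GC content of the hosts, taken from the longest isoform with a GENCODE sequence, spanned 42.5% to 58.0%. With ESRP2 siRNA against control siRNA, Spearman's rho between ratio and GC content was -0.64 across genes, which are not independent replicates. The median log2 ratio was 0.60 in the decile of genes with the lowest GC content and -0.49 in the decile with the highest. SNHG5, at 43.5% GC, lay in a decile whose median was 0.41 and in which 33.2% of genes rose. Its ratio was nonetheless at percentile 98.6 of that decile, and with the decile's median subtracted it was 1.05.

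After this subtraction SNHG5 and SNHG8 (0.63) still passed 1.5-fold upward and SNHG3 (0.36) did not, where 9.2% of genes rose and 7.7% fell. SNHG8 fell below the size too, at 0.30, when the GC content of its most abundant isoform (41.3%) replaced that of its longest (49.3%), a choice made after the values were seen. GAS5 had a ratio of -0.58 after the subtraction, just short of 1.5-fold downward, and lay at percentile 7.23 of its decile. SNHG1 and SNHG6 came to -0.31 and -0.33, and SNHG7 and SNHG12 to 0.06 and 0.11. The median of the hosts was 0.082 after the subtraction, which sets the median of each GC decile to 0, so whether the hosts' median lay below or above that of all genes depended on this step.

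**Figure D2:**
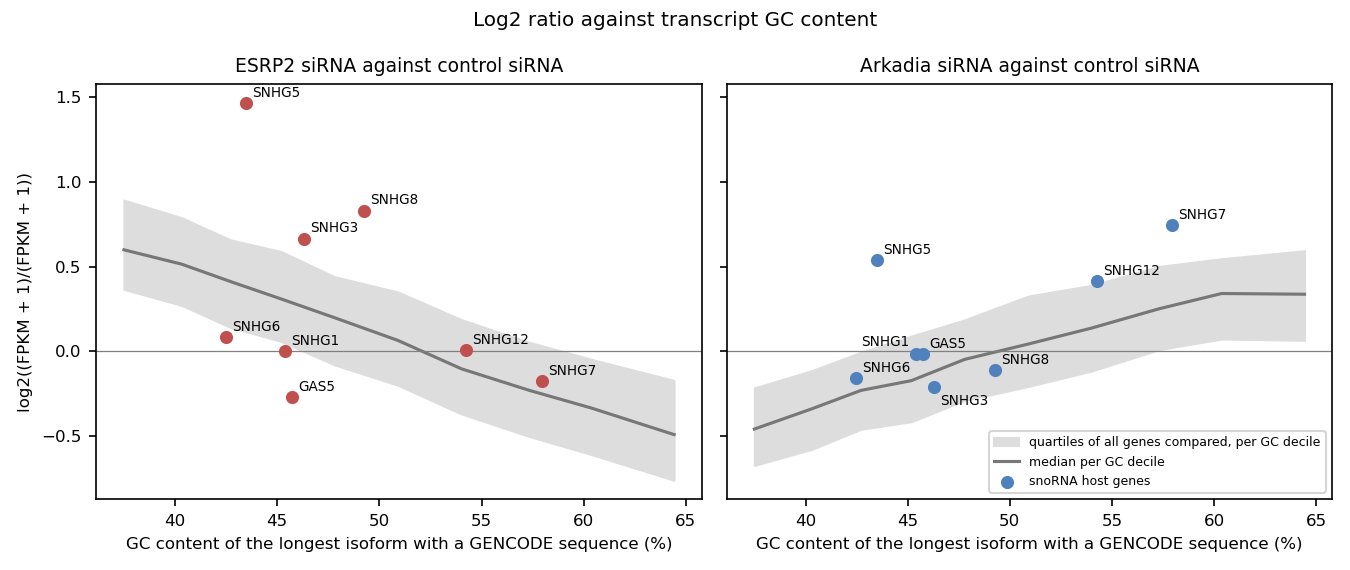
Log2 ratio against control siRNA (vertical axis, 1 added to both FPKM) plotted against the GC content in percent of each host's longest isoform with a GENCODE sequence (2238 nt in SNHG3), for ESRP2 siRNA on the left and Arkadia siRNA on the right. The grey line is the median and the band the quartiles of all genes in each decile of GC content; the line falls from 0.60 to -0.49 on the left and climbs from -0.46 to 0.34 on the right, and SNHG5 lies above the band in both panels.

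With Arkadia siRNA, 1 host rose against control siRNA, 0 fell and 7 did neither, where 9.81% of all genes rose and 11.8% fell. The host that rose was SNHG7, with a log2 ratio of 0.75 (1.69-fold). SNHG5 stood just under the size with 0.54 (1.45-fold) and SNHG12 had 0.41 (1.36-fold). The remaining ratios were -0.02 for GAS5 and SNHG1, -0.11 for SNHG8, -0.16 for SNHG6 and -0.21 for SNHG3. The median of the hosts was -0.02, the same as over all genes to 2 decimals, and 0 of 8 hosts had intervals apart, where 0.438% of genes did.

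The GC trend ran the other way in this comparison, with a rho of 0.56 across genes and medians of -0.46 and 0.34 in the lowest and highest decile. SNHG7, the host richest in GC at 58.0%, had 0.50 after the subtraction, short of 1.5-fold, and lay at percentile 89.8 of its decile. With the GC content of its most abundant isoform (61.9%) the ratio was 0.41. SNHG5 had 0.77 after it and was then the 1 host past 1.5-fold upward, where 6.35% of genes rose and 7.01% fell. SNHG5 thus had a ratio above its GC decile's median in both comparisons with control siRNA. These comparisons share the control library.

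Set directly against each other, Arkadia siRNA against ESRP2 siRNA, 1 host rose and 3 fell. SNHG7 rose by 0.92 on the log2 scale (1.91-fold). The 3 that fell were SNHG8 (-0.94), SNHG5 (-0.93) and SNHG3 (-0.87), each at 0.519 to 0.532 times its ESRP2 siRNA level. Of all genes 21.2% rose and 30.8% fell in this comparison, so 1 and 3 of 8 are near the background. The others had 0.41 (SNHG12), 0.25 (GAS5), -0.02 (SNHG1) and -0.24 (SNHG6), the median of the hosts was -0.13 beside -0.14 over all genes, and 0 of 8 hosts had intervals apart, where 6.36% of genes did.

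The GC trend was steepest here, with a rho of 0.75 and medians of -1.07 and 0.80 in the lowest and highest decile. After subtraction GAS5 (0.73) was the 1 host past 1.5-fold upward and SNHG8 (-0.71) the 1 past it downward, where 12.4% of genes rose and 14.1% fell. SNHG5 then had -0.30, SNHG3 -0.40 and SNHG7 0.45, or 0.27 with the GC content of SNHG7's most abundant isoform. Of the 4 hosts past 1.5-fold as deposited, SNHG8 alone was still past it, and with the GC content of its most abundant isoform its ratio was -0.068.

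**Figure D3:**
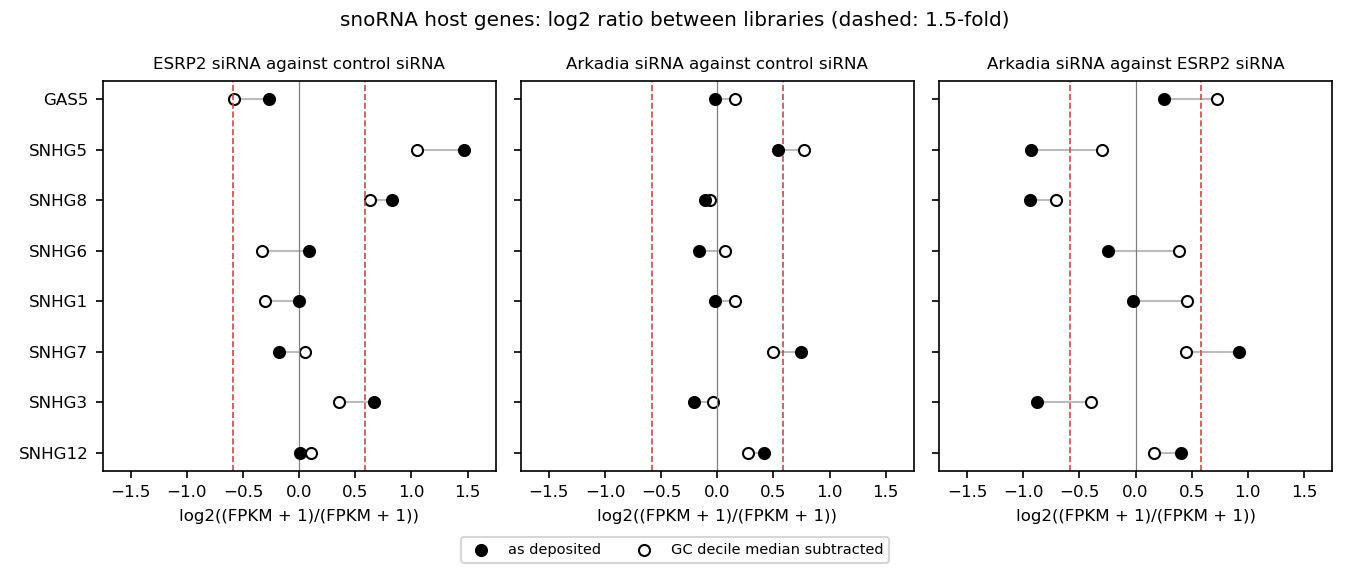
Log2 ratio of each host (1 added to both FPKM) in the 3 comparisons; filled points are as deposited, open points have the median of the host's decile of GC content subtracted, and dashed lines mark 1.5-fold. SNHG5 stays beyond the line in the first panel (1.47 and 1.05), while SNHG7 crosses it inward in the other two panels (0.75 and 0.50, then 0.92 and 0.45).

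Rescaling the libraries shifted all ratios together. By the median of ratios the median over all genes moved by -0.11 for ESRP2 siRNA against control siRNA, 0.03 for Arkadia siRNA against control siRNA and 0.14 for Arkadia siRNA against ESRP2 siRNA. The genes that rose and fell then numbered 1718 and 1834 in the first of these, against 2361 and 1354 as deposited, and 3102 and 2995 in the last, against 2521 and 3656. Under it SNHG5 and SNHG8 still rose with ESRP2 siRNA and SNHG3 did not, while the signs of SNHG1, SNHG6 and SNHG12, whose ratios were within 0.1 of 0, turned.

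SNHG8 needs its isoforms stated. Its gene value rested on an isoform row of 274 nt, below the 300 nt limit, which stood at 378 FPKM (160 to 595) with ESRP2 siRNA and 191 FPKM (71.8 to 312) with Arkadia siRNA, against 211 FPKM (85.3 to 338) with control siRNA. That row held 96.1%, 93.8% and 95.9% of the gene's FPKM in these libraries. The 201 nt offset did not carry over to such short rows: in single-isoform rows of 200 to 300 nt it gave whole reads for 25%, 20% and 42.9% of 8, 5 and 7 values, against at least 98.9% in each library from 300 nt up, so the number of reads behind the 274 nt row was not estimated. The rows of 468 and 619 nt together gave 15.1 FPKM with ESRP2 siRNA and 12.6 FPKM with Arkadia siRNA, against 8.97 FPKM with control siRNA. From these longer rows alone the log2 ratio was 0.69 for ESRP2 siRNA against control siRNA, in the direction of the gene row, but 0.44 for Arkadia siRNA against control siRNA, where the gene row had -0.11. For Arkadia siRNA against ESRP2 siRNA they gave -0.25, where the gene row had -0.94, so without the 274 nt row SNHG8 did not fall. The lower bound of the 468 and the 619 nt row was 0 in every library.

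SNHG7 was carried by its 968 nt isoform, which stood at 50.7 FPKM with ESRP2 siRNA and 99.9 FPKM with Arkadia siRNA, against 57.9 FPKM with control siRNA, or 93.4%, 96.3% and 94.1% of the gene. Its other rows, of 853 and 2159 nt, lay between 1.41 and 2.47 FPKM in all 3 libraries. The higher gene value with Arkadia siRNA was thus in the main isoform. SNHG3 was carried by its 2238 nt isoform, with 32.0 FPKM under ESRP2 siRNA and 15.5 FPKM under Arkadia siRNA, against 20.1 FPKM under control siRNA. Its 2346 nt isoform stood at 0.438 FPKM with ESRP2 siRNA and 1.70 FPKM with Arkadia siRNA and was listed at 0 with control siRNA. The other 5 hosts had 1 isoform row each, so isoform shares could differ in SNHG3, SNHG7 and SNHG8 only, and none of these 3 changed a share by the fixed size of 0.25. The largest change of share among rows of 300 nt or longer was 0.235, in SNHG8 between Arkadia siRNA and ESRP2 siRNA. Among these rows ESRP2 siRNA, which targets a splicing regulator, gave at most 0.0542, in SNHG8 against control siRNA. These rows held only 3.85%, 6.15% and 4.07% of SNHG8's FPKM with ESRP2, Arkadia and control siRNA. With all rows counted, SNHG8's changes in the same comparisons were 0.0230 and 0.00227. The largest change was then 0.0986, in SNHG3 between Arkadia siRNA and control siRNA. ESRP2 siRNA then gave at most 0.0135 against control siRNA, also in SNHG3.

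**Figure D4:**
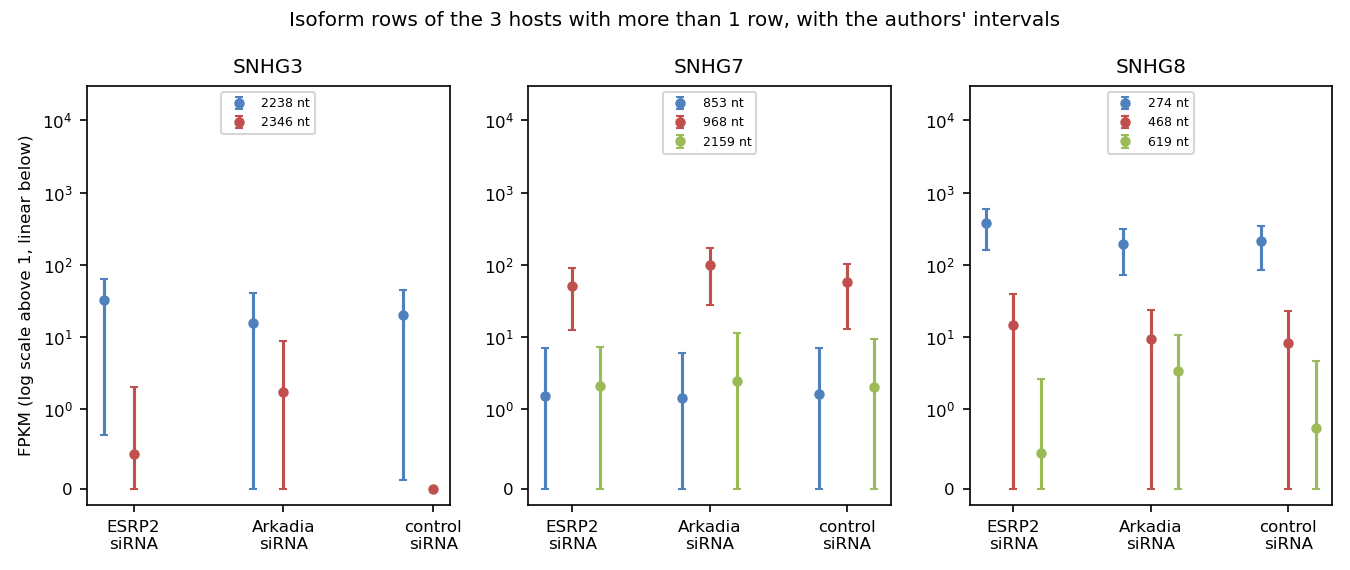
FPKM of every isoform row of SNHG3, SNHG7 and SNHG8 in the ESRP2 siRNA, Arkadia siRNA and control siRNA library, on an axis that is logarithmic above 1 and linear below it; bars are the authors' intervals. In each host 1 isoform holds most of the RNA in every library (2238 nt in SNHG3, 968 nt in SNHG7, 274 nt in SNHG8), and most intervals of the minor rows reach 0.

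Some hosts share their locus with other genes, and the authors' bounds were widest at several of these loci. The positions given are those of the deposited loci, here and for the hosts that follow. A locus can span a neighbouring gene as well as the host. On hg19 SNHG3 (chromosome 1, 28832455 to 28865708) was quantified with RCC1, a chromatin-bound exchange factor with 129 FPKM under ESRP2 siRNA and 162 FPKM under Arkadia siRNA, against 110 FPKM under control siRNA. It shares 242 of its 2201 annotated exonic bases (11.0%) with RCC1 on the same strand, and its interval was 1.98 to 2.57 times its value. The 2201 bases are fewer than either of its isoform rows, of 2238 and 2346 nt. SNHG12 (chromosome 1, 28879529 to 28908366, 739 nt) was quantified with TRNAU1AP, and its interval was 1.68 to 1.81 times its value. SNHG7 (chromosome 9, 139607024 to 139622636) shared its locus with FAM69B, which stood at 40.2 FPKM with ESRP2 siRNA and 72.1 FPKM with Arkadia siRNA, against 57.0 FPKM with control siRNA. Both genes of that locus were highest with Arkadia siRNA, and a part of the neighbour in SNHG7's value was not tested.

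The remaining hosts had intervals of 1.003 to 1.196 times their value. SNHG1 lies on chromosome 11 (62619460 to 62623360, 1118 nt), SNHG5 on chromosome 6 (86386725 to 86388451, 507 nt), SNHG8 on chromosome 4 (119199917 to 119200978, 619 nt for the longest isoform) and GAS5 on chromosome 1 (173832386 to 173837125, 632 nt), all on hg19. GAS5 overlaps the antisense RNA GAS5-AS1 (LOC100506046 in the table) over 41 of its 632 exonic bases (6.49%), and that RNA stood at 1.36 FPKM with ESRP2 siRNA and 0.84 FPKM with Arkadia siRNA, against 0.157 FPKM with control siRNA. SNHG6, with 1 isoform row of 472 nt, was quantified with C8orf45 in a locus of 54794 nt on chromosome 8 (67782984 to 67837777). Of its 638 annotated exonic bases, 231 (36.2%) lie opposite C8orf45, which was at 0.0839 to 0.244 FPKM. These 638 bases are more than the 472 nt row, so 36.2% is not the share of that row. Whether reads were counted by strand is not given in the sources used here, so reads from the strands cannot be told apart at either locus; at each of them the partner's level was under 1% of the host's.

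Of other non-coding hosts, 8 of the 27 symbols listed were in the table and 6 were compared. Of all genes compared, 19.9% rose and 11.4% fell with ESRP2 siRNA against control siRNA, and 9.81% and 11.8% with Arkadia siRNA. Of these 6 hosts, 1 rose and 1 fell with ESRP2 siRNA, and 0 rose and 0 fell with Arkadia siRNA. Their medians were -0.03 and -0.16, or -0.07 and -0.32 after subtraction of the GC deciles. The one that rose was SNHG10, with 10.3 FPKM under ESRP2 siRNA and 4.72 FPKM under Arkadia siRNA, against 6.16 FPKM under control siRNA. The one that fell was SNHG11, with 4.54 and 7.41 FPKM, against 7.68 FPKM under control siRNA. DANCR (215, 182 and 202 FPKM), SNHG15 (70.5, 69.2 and 77.4 FPKM), EPB41L4A-AS1 (15.8, 17.8 and 15.1 FPKM) and SNHG4 (1.98, 2.59 and 3.45 FPKM, each with ESRP2, Arkadia and control siRNA) did neither. SNHG9, at 233 nt, and MEG8, under 1 FPKM, were not compared.

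The 48 protein-coding snoRNA hosts, mostly genes for ribosomal proteins, translation factors and nucleolar proteins, moved in both directions. With ESRP2 siRNA 5 rose and 8 fell (median 0.04) and with Arkadia siRNA 7 rose and 5 fell (median 0.12) against control siRNA. Of all genes compared, 19.9% rose and 11.4% fell with ESRP2 siRNA (median 0.12). With Arkadia siRNA 9.81% of all genes rose and 11.8% fell (median -0.02), and the difference from the list was not tested. After subtraction of the GC deciles the medians of the protein-coding hosts were -0.14 and 0.082. Nearest to the hosts' median pair of ratios were the translation factor gene EIF4A2 (69.6, 67.6 and 69.1 FPKM with ESRP2, Arkadia and control siRNA), RPS2 (6113, 5613 and 5590 FPKM) and the snoRNP core gene NOP56 (277, 253 and 243 FPKM), at distances of 0.04, 0.09 and 0.16 on the log2 scale over these 2 ratios. With ESRP2 siRNA against control siRNA the ratios of protein-coding hosts ran between -1.04 for RPS13 (1766 FPKM, against 3628 FPKM) and 1.10 for RPL7A (4733 FPKM, against 2203 FPKM). With Arkadia siRNA the highest was RPS12 at 1.19 (1846 FPKM, against 807 FPKM), and the lowest was RPL21, listed at 0.0514 FPKM with an interval of 0 to 0, against 174 FPKM. With Arkadia siRNA against ESRP2 siRNA the highest was RPL37 at 1.78 (473 FPKM, against 137 FPKM), and RPL21 was again the lowest. The genome holds close copies of many ribosomal protein genes, so how their reads were divided is uncertain.

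The proteins that bind snoRNAs and those that degrade host RNAs were read from the same tables. Of 19 genes for snoRNP proteins and assembly factors, 4 rose and 1 fell with ESRP2 siRNA (median 0.24), and 1 rose and 1 fell with Arkadia siRNA (median -0.01), where 19.9% of the genes compared rose and 11.4% fell with ESRP2 siRNA and 9.81% and 11.8% with Arkadia siRNA. After subtraction of the GC deciles the ESRP2 siRNA median of this list was 0.073. Of 19 genes for nonsense-mediated decay and the exon junction, 5 rose and 2 fell with ESRP2 siRNA (median 0.06), and 0 rose and 3 fell with Arkadia siRNA (median 0.14), and after the subtraction the medians were -0.12 and 0.042. In that list SMG8, a regulator of the decay kinase SMG1, stood at 67.6 FPKM with ESRP2 siRNA and 23.5 FPKM with Arkadia siRNA, against 18.8 FPKM with control siRNA, and its intervals with ESRP2 and control siRNA were apart. PNRC2, which links the decay factor UPF1 to decapping, stood at 70.3 and 30.3 FPKM, against 22.5 FPKM with control siRNA, and its intervals with ESRP2 and control siRNA were apart too. MAGOHB, an exon junction protein gene, stood at 5.58 FPKM with Arkadia siRNA, against 17.6 FPKM with ESRP2 siRNA, with intervals apart; its GC content was 37.0%, and its log2 ratio was -1.50 as deposited and -0.43 after subtraction of the GC deciles. SMG8 and PNRC2 stood at 1.79 and 1.60 with ESRP2 siRNA against control siRNA as deposited, and at 1.59 and 1.0 after it.

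Other long non-coding RNAs were read as well. Of all genes compared, 19.9% rose and 11.4% fell with ESRP2 siRNA against control siRNA, and 9.81% and 11.8% with Arkadia siRNA. Of 13 long non-coding RNAs compared, 5 rose and 1 fell with ESRP2 siRNA against control siRNA. Their median was 0.42 as deposited and 0.12 after subtraction of the GC deciles. With Arkadia siRNA against control siRNA 0 rose and 3 fell, with a median of -0.24 as deposited and -0.19 after it. MALAT1, a nuclear RNA of splicing speckles, was the one whose intervals were apart, at 0.84 FPKM with Arkadia siRNA, against 3.0 FPKM with control siRNA, and it stood at 2.43 FPKM with ESRP2 siRNA. The difference between the hosts and this list was not tested.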

How the data were processed

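Polyadenylated RNA of HEK293T cells was measured in 3 libraries, 1 per siRNA. The deposited FPKM values and their confidence bounds are the authors' own; the submitters' processing notes name Cuffdiff, Cufflinks 2.1.1, TopHat2 2.0.10 and Bowtie2 2.1.0, with the build hg19. How libraries were scaled, how dispersion was modelled and whether strand was used is not given in the sources used here. The 8 hosts and all lists were chosen with earlier results of these data known. Ratios were log2((FPKM + 1)/(FPKM + 1)) over 11870 genes, so they understate changes of low genes; no count test, replicate error or p-value was possible. GC content came from GENCODE 29 transcripts (97.25% of genes compared by accession, 99.07% in all), and medians of 10 equal groups by GC content were subtracted as an alternative. Other alternatives were the added value, 2 rescalings, transcript length, isoform rows of 300 nt or longer, other FPKM minimums and 2-fold; the GC content of the most abundant isoform was added after seeing the data. Named beside the hosts are the siRNA targets, all non-coding hosts in the table, the 3 protein-coding hosts nearest to the hosts and the extremes, and, of other lists, genes past 1.5-fold with intervals apart. Start windows came from RefSeq on GRCh38.p14 and were not joined to hg19 positions. The calculation was tested on simulated data. Python 3.11.15, pandas 2.3.3, numpy 2.4.6 and scipy 1.17.1 were used. Library sizes of 9.74 M to 13.4 M reads were estimated from the values, and equal sequencing depth only without rescaling between libraries.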

Additional observations from a re-analysis of the deposited data

Results flagged for a closer look

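The snoRNA rows at the hosts' loci were outside the comparisons, being 43 to 134 nt long. Of these 28 rows, 4 were above 0 with ESRP2 siRNA and listed at 0 with control siRNA, and 4 were above 0 with Arkadia siRNA and listed at 0 with control siRNA. In all, 4 rows were above 0 with ESRP2 siRNA and 5 with Arkadia siRNA, against 3 with control siRNA, and 18 were listed at 0 in all 3 libraries. Mature snoRNAs carry no polyA tail and the libraries were made from polyA RNA, so these values are not read as snoRNA levels.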

How the results depend on the processing

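No paired analysis was possible because each group had 1 library, and for the same reason no library could be left out. For ESRP2 siRNA against control siRNA, SNHG5 was past 1.5-fold under all 8 alternatives (log2 1.05 to 1.48), SNHG8 under 7 (0.30 to 0.85) and SNHG3 under 3 (0.36 to 0.69). Those 3 for SNHG3 were the changes of the added value and the isoform rows of 300 nt or longer, which barely moved its ratio. The isoform rows likewise repeat the deposited ratio of SNHG5. SNHG3 was short of 1.5-fold under both rescalings (0.54 and 0.50), both GC subtractions (0.36 and 0.37) and length subtraction (0.583). The number of hosts that rose there was 1 at 2-fold and 1 with the GC content of the most abundant isoform, and the hosts' median was -0.077 rescaled by the median of ratios and -0.12 by the upper quartile; it was 0.082 after GC subtraction. For Arkadia siRNA against control siRNA, 0 hosts rose at 2-fold, and SNHG7 ran between 0.41 and 0.78 and SNHG5 between 0.38 and 0.77. The hosts' median was 0.16 after GC subtraction, 0.20 with the most abundant isoform's GC content, -0.17 after length subtraction and 0.20 from isoform rows of 300 nt or longer. For Arkadia siRNA against ESRP2 siRNA, 0 hosts rose and 0 fell at 2-fold; 1 fell after GC subtraction and 0 with the most abundant isoform's GC content. That median was 0.023 by the median of ratios, 0.029 by the upper quartile, 0.27 after GC subtraction, 0.21 with the most abundant isoform's and -0.29 after length subtraction, and SNHG8 ran between -1.10 and -0.068. The causes of these moves were not tested. Without a minimum on FPKM, the share of all genes past 1.5-fold was 18.2% and 12.8% against control siRNA and 30.2% in the direct comparison, over more genes.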
